A study of Mus musculus with 12 samples.

Results

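The Atf4 amino acid response was followed through 31 named genes, listed by symbol with earlier results of these data known. They were found by matching the Entrez identifiers of the gene counts to mouse symbols, and all 31 were among the 27179 genes counted. Of these, 29 were among the 13947 genes with enough counts to be tested, and Bcat1 and Stc2 were not. By role they comprised 7 genes of amino acid synthesis, 4 of mitochondrial one-carbon metabolism, 2 eIF2α kinases, 8 transcription factors, 8 feedback and stress effectors, and 2 genes for a secreted protein and a receptor.

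When amino acids are short or proteins misfold in the endoplasmic reticulum, kinases phosphorylate the translation initiation factor eIF2α, which lowers protein synthesis in general but lets the ribosome translate Atf4 mRNA. The Atf4 protein then raises transcription of genes for amino acid synthesis and uptake and for stress effectors, so that Atf4 mRNA alone is a poor measure of the pathway's output. Liver normally makes little serine or asparagine from glucose-derived precursors and instead takes up, degrades and exports amino acids, and its serine synthesis genes are known to be sensitive to dietary protein.

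Livers came from young adult male mice in 4 groups of 3, with 1 library per mouse, fed chow (CD) or a low-protein diet (LPD), in which carbohydrate replaces protein energy. After a week on the diet, plasmids were delivered by hydrodynamic injection into the tail vein with the Sleeping Beauty transposase, which inserts them into the genome of the hepatocytes that take them up. The injected genes were human c-MET and ΔN90-β-catenin, a constitutively active β-catenin without its N terminus, and controls received the vector alone (Vec). All groups were harvested when the CD c-MET/β-catenin mice reached their end point. CD and LPD Vec livers thus differed by diet, and in the c-MET/β-catenin livers (oncogene livers in short) a fraction of hepatocytes carried the oncogenes beside the host's own. The study reports a lower tumor burden on LPD at this harvest, and fewer oncogene-expressing hepatocytes on LPD early after injection. The oncogene effects below compare whole livers. Titles in the labels call the Vec livers WT. They give the diet of the CD libraries as chow, whereas the deposited column names of the same libraries read HPD, which in the study's methods is a high-protein diet. Groups here follow the titles, and the difference between the names was not resolved, so each CD value stands for chow as far as the titles go. In bulk liver, fewer cells of a type and less RNA per cell cannot be told apart.

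Atf4 binds DNA with C/EBP proteins at a composite site, the C/EBP-ATF response element, whose core is TGATGNAA. This motif was searched on both strands in the 250 bases before each RefSeq transcription start (build GRCm38.p6), where 28 of the 31 genes had an entry. It was found for 7 of the 28 (25%), against 3.91% of the 27025 genes with promoters. The exact form TGATGCAA was found for 6 of the 28, against 0.918% of those genes. The windows are shown because this element is the known route by which Atf4 acts on genes such as Asns, as 36 bases written 5′ to 3′ on the strand that carries the motif, with the motif in capitals.
Asns: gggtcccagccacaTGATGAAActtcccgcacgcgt
Pycr1: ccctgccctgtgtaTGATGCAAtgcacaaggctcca
Atf3: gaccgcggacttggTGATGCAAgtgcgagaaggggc
Nupr1: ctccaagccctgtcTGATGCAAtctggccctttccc
Jdp2: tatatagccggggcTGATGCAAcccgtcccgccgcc
Chac1: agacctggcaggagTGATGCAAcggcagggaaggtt
Vldlr: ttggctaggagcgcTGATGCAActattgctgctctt
They lie at chr6:7693211-7693246 (minus strand), chr11:120643830-120643865 (minus), chr1:191183422-191183457 (plus), chr7:126625559-126625594 (plus), chr12:85599369-85599404 (plus), chr2:119351035-119351070 (minus) and chr19:27216806-27216841 (minus). On the strand of the gene, the first base of the motif lay 23 bases upstream of the start for Asns, 33 for Jdp2, 103 for Pycr1, 110 for Atf3 and Nupr1, 193 for Chac1 and 200 for Vldlr. For Jdp2 and Vldlr this is a RefSeq start inside the gene, and their windows lie downstream of the gene's first base. In Trib3 a match (TGATGTAA) began at the 15th base after the start. These matches are descriptions of the sequence, and a promoter without one says only that the letters are not in its window.

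Each library held 19476209 to 31990267 counts, and replicates correlated across genes with r between 0.961 and 0.988. Levels are CPM, which scale each library's counts to a common depth, with TMM factors. The 6 hepatocyte markers summed to between 64645 and 115929 CPM and none was at 0, in RNA of whole liver. The 4 markers of dividing cells summed to 3.13 to 9.48 CPM in CD Vec, 101 to 137 in CD c-MET/β-catenin, 3.89 to 4.61 in LPD Vec and 13.3 to 39.2 in LPD c-MET/β-catenin livers. Dataset numbers in the header of the count table fell into 3 runs, and the sources used here do not say if these mark sequencing batches or only the order of upload. CD c-MET/β-catenin livers 1 and 2 formed run 1. CD Vec livers 1 and 2 formed run 3 together with LPD Vec liver 1, and the other 7 libraries formed run 2. CD Vec replicate 2 stood apart within its group for several stress genes, so calls on CD and by diet in Vec livers that it decided are given with and without it.

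**Figure D1:**
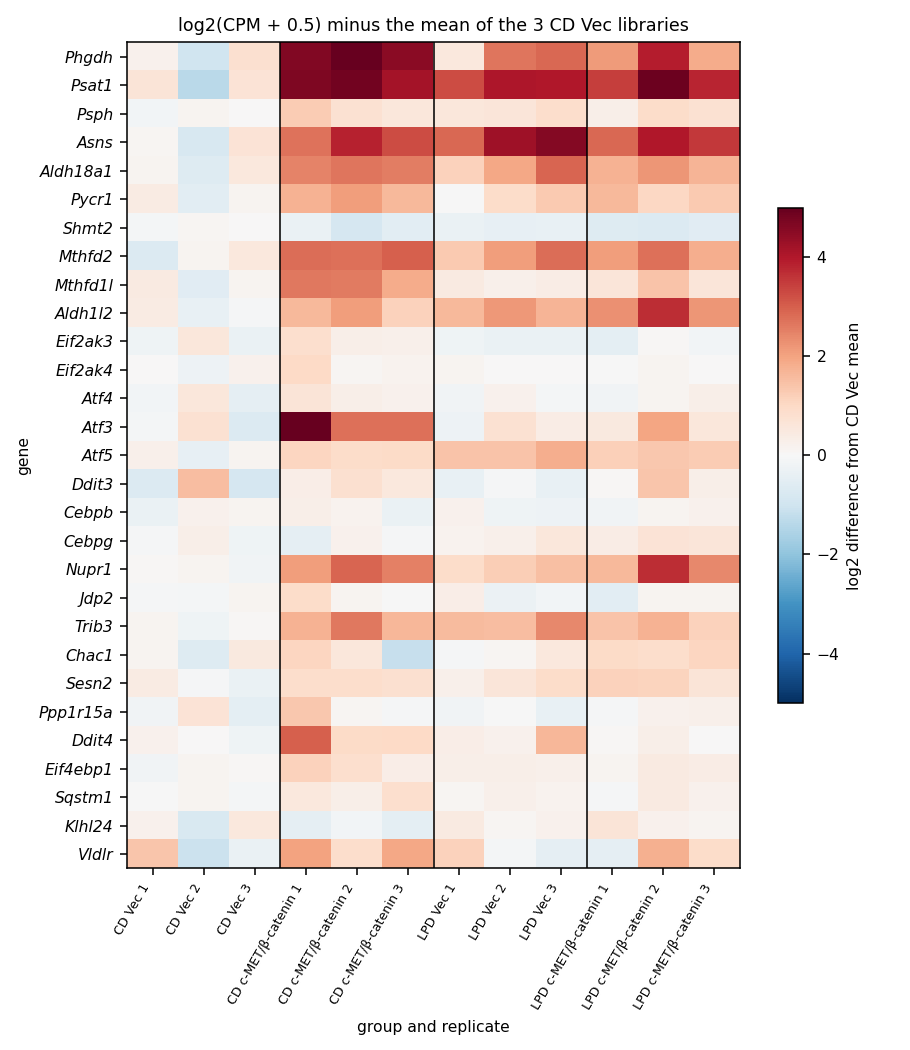
Each row is 1 of the 29 tested genes and each column 1 of the 12 libraries, and color gives log2(CPM + 0.5) minus the mean of the 3 CD Vec libraries (red higher, blue lower). The serine, asparagine and proline synthesis genes at the top are red in the 3 CD c-MET/β-catenin libraries and also, less evenly, in both LPD groups, whereas Atf4, Cebpb and Cebpg stay pale throughout.

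The oncogene effect was examined first on CD. Amino acid synthesis and one-carbon genes rose in c-MET/β-catenin livers by up to 38.3-fold (Phgdh), together with Atf3, Atf5, Nupr1, Trib3 and other stress effectors, whereas Atf4 mRNA itself did not pass the test. Among the 29 tested members 17 were higher and 1 (Shmt2) lower at an adjusted p under 0.05 by edgeR's quasi-likelihood test. Over all genes tested 35.4% were called, 18.7% higher and 16.7% lower. DESeq2 called 18 members too, and 38.4% of all genes. The median log2 fold change was 0.95 over the 29 members and -0.01 over all genes tested. By role, 6 of 6 tested amino acid synthesis genes rose (median 3.27), 3 of 4 one-carbon genes rose (median 2.62), 3 of 8 transcription factors rose (median 0.44), 5 of 8 effectors rose (median 0.70) and 0 of 2 kinases were called (median 0.46), with 0 of 2 at an unadjusted p under 0.05 and 0 called by DESeq2. All 3 oncogene libraries lay above all 3 Vec libraries for 17 members and below them for 1, where 22.2% and 20.4% of all genes tested separated in these directions.

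The serine pathway starts from the glycolytic intermediate 3-phosphoglycerate. Phgdh (Entrez 236539, mm10 chromosome 3 from 98313171 to 98339969), which encodes its first and committed enzyme, was at 0.764, 0.0569 and 1.41 CPM in CD Vec and 27.1, 35.5 and 24.7 CPM in CD c-MET/β-catenin livers (log2 fold change 5.26, SE 0.91, adjusted p = 0.00118). Every oncogene library was far above every Vec library, of which replicate 2 held a single Phgdh count, and without CD Vec replicate 2 the value was 4.73 (adjusted p = 0.00511). Psat1 (107272, chromosome 19 from 15905123 to 15925059), encoding the transaminase of the next step, was at 2.19, 0.171 and 2.24 CPM in Vec and 42.4, 47.7 and 29.7 CPM in oncogene livers (log2 fold change 4.68, SE 0.62, adjusted p = 0.000251), again without overlap. Without CD Vec replicate 2 it was 4.16 (adjusted p = 0.000488). Psph (100678, chromosome 5 from 129765558 to 129787443), encoding the phosphatase that releases serine, was at 6.22, 7.62 and 7.03 CPM in Vec and 17.5, 12.2 and 10.6 CPM in oncogene livers (log2 fold change 0.95, SE 0.22, adjusted p = 0.00605). The groups did not overlap, but the change was 1.93-fold, against 25.6-fold for Psat1.

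Asns (27053, chromosome 6 from 7675165 to 7693209) encodes asparagine synthetase, a classical target of Atf4 through the promoter element printed above. It was at 0.968, 0.284 and 1.72 CPM in CD Vec and 8.38, 19.2 and 12.7 CPM in CD c-MET/β-catenin livers (log2 fold change 3.73, SE 0.62, adjusted p = 0.000942), with the lowest oncogene library above the highest Vec library. In proline synthesis, Aldh18a1 (56454, chromosome 19 from 40550257 to 40588463), encoding the bifunctional enzyme that starts the pathway from glutamate, was at 1.73, 0.796 and 2.45 CPM in Vec and 10.98, 12.6 and 11.6 CPM in oncogene livers (log2 fold change 2.81, SE 0.46, adjusted p = 0.000772). The 3 oncogene libraries were close together and all well above Vec. Pycr1 (209027, chromosome 11 from 120638998 to 120643748), encoding the mitochondrial reductase of the last step, was low, at 0.662, 0.114 and 0.469 CPM in Vec and 2.46, 3.26 and 2.21 CPM in oncogene livers (log2 fold change 2.63, SE 0.55, adjusted p = 0.00323). Bcat1, encoding the cytosolic branched-chain aminotransferase that adult liver scarcely makes, had 0, 0 and 0 counts in CD Vec and 7, 7 and 1 in CD c-MET/β-catenin livers, with 0 in every LPD library, too few for the test.

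Mitochondrial one-carbon metabolism takes the carbon released from serine as formate. Mthfd2 (17768, chromosome 6 from 83305704 to 83326011), a dehydrogenase and cyclohydrolase found mainly in embryos and tumors, was at 0.968, 2.104 and 2.86 CPM in CD Vec and 15.7, 15.3 and 18.04 CPM in CD c-MET/β-catenin livers (log2 fold change 3.05, SE 0.45, adjusted p = 0.0003999). Mthfd1l (270685, chromosome 10 from 3972892 to 4167081), which releases formate, was at 2.802, 1.14 and 2.13 CPM in Vec and 14.5, 14.4 and 8.16 CPM in oncogene livers (log2 fold change 2.60, SE 0.36, adjusted p = 0.000276). Oncogene and Vec libraries were separate for both genes. Aldh1l2 (216188, chromosome 10 from 83487447 to 83534146), which oxidizes formyl-tetrahydrofolate to carbon dioxide, was at 0.560, 0.114 and 0.260 CPM in Vec and 1.91, 2.86 and 1.24 CPM in oncogene livers (log2 fold change 2.64, SE 0.62, adjusted p = 0.00612). Shmt2 (108037, chromosome 10 from 127517123 to 127522444), the mitochondrial serine hydroxymethyltransferase that feeds this route, went the other way, at 272, 306 and 292 CPM in Vec and 228, 163 and 199 CPM in oncogene livers (log2 fold change -0.56, SE 0.13, adjusted p = 0.00590). Every oncogene library was below every Vec library, and the call was lost with total counts only (-0.27, adjusted p = 0.0872) and in a fit of only these groups (-0.58, adjusted p = 0.0559).

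**Figure D2:**
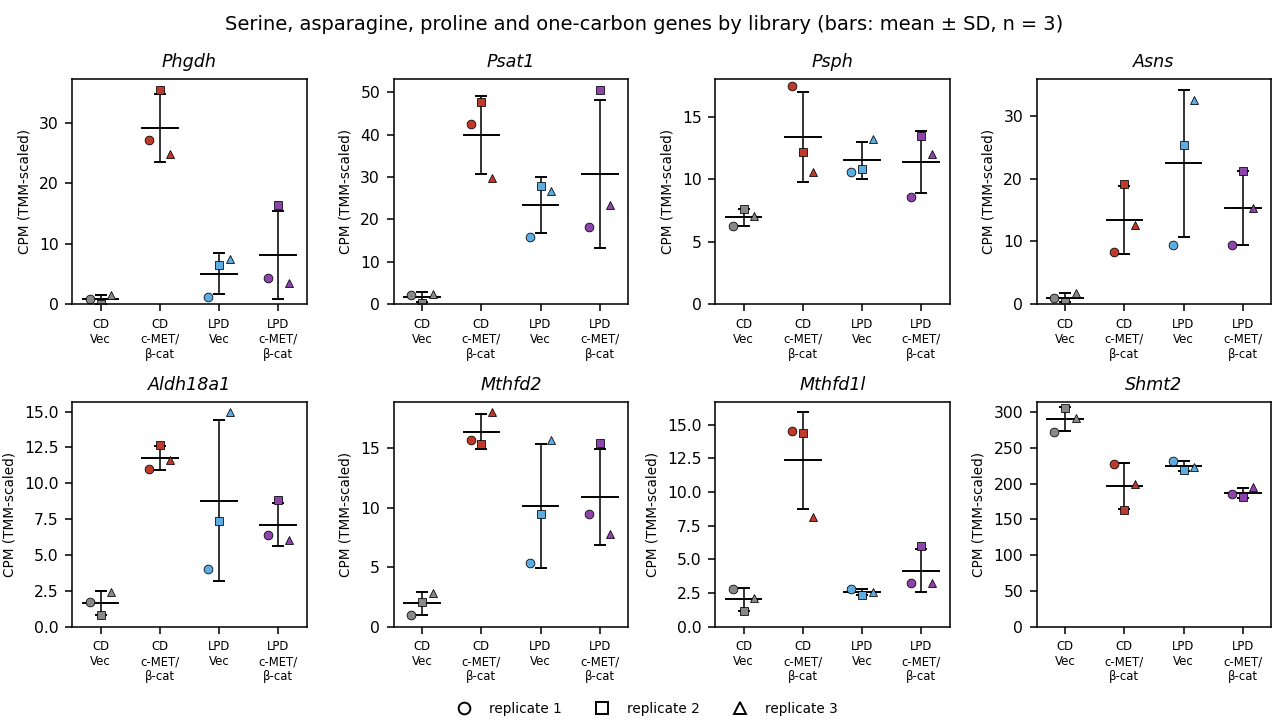
Points show TMM-scaled CPM of 8 synthesis and one-carbon genes in each of the 12 libraries by group, with marker shape for the replicate, and black bars give mean ± SD (n = 3). Phgdh, Psat1, Asns, Aldh18a1 and Mthfd2 have their lowest mean in CD Vec, Mthfd1l is highest in CD c-MET/β-catenin livers (8.16 to 14.5 CPM), and Shmt2 is highest in CD Vec.

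The kinases that start the response were measured as mRNA only, whereas they act by phosphorylation. Eif2ak3, encoding the endoplasmic reticulum sensor PERK, was at 23.8, 41.7 and 21.9 CPM in CD Vec and 50.7, 34.6 and 33.5 CPM in CD c-MET/β-catenin livers (log2 fold change 0.44, SE 0.24, adjusted p = 0.178), where CD Vec replicate 2 lay within the oncogene range. Eif2ak4, encoding the amino acid sensor GCN2, was at 11.2, 9.15 and 12.7 CPM in Vec and 21.98, 11.7 and 12.2 CPM in oncogene livers (log2 fold change 0.48, SE 0.22, adjusted p = 0.117). Atf4 (11911, chromosome 15 from 80255184 to 80257545) was at 53.1, 88.2 and 43.5 CPM in Vec and 92.8, 72.5 and 68.8 CPM in oncogene livers (log2 fold change 0.34, SE 0.23, adjusted p = 0.282), and the groups overlapped only through CD Vec replicate 2. Without CD Vec replicate 2 the values were 0.68 for Atf4 (adjusted p = 0.0156) and 0.79 for Eif2ak3 (adjusted p = 0.0118), both past the threshold. With total counts only, which moved the median of all genes to 0.28 on this comparison, Atf4 (0.64, adjusted p = 0.0398), Eif2ak3 (0.74, adjusted p = 0.0221) and Eif2ak4 (0.76, adjusted p = 0.0189) passed as well. The call on Atf4 mRNA thus depended on 1 library and on the scaling.

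Among the other factors, Atf5 (107503, chromosome 7 from 44812256 to 44816658), which like Atf4 is controlled by translation and acts in the mitochondrial stress response, was at 319.5, 197 and 295 CPM in CD Vec and 559.6, 502 and 518 CPM in CD c-MET/β-catenin livers (log2 fold change 0.96, SE 0.18, adjusted p = 0.00174). Atf3 (11910, chromosome 1 from 191170296 to 191183333), an immediate-early stress factor, was at 1.78, 3.696 and 1.04 CPM in Vec and 81.5, 15.95 and 16.02 CPM in oncogene livers (log2 fold change 4.13, SE 0.79, adjusted p = 0.00208). Replicate 1 of the oncogene group was far above the other two, and the groups stayed separate. Without CD oncogene replicate 1 the Atf3 value was 2.88 (adjusted p = 0.00387). Nupr1 (56312, chromosome 7 from 126623246 to 126625470), a small chromatin protein induced by many stresses, was at 0.509, 0.569 and 0.364 CPM in Vec and 3.64, 6.89 and 5.13 CPM in oncogene livers (log2 fold change 3.43, SE 0.57, adjusted p = 0.000772). Cebpb, Cebpg, Ddit3 and Jdp2, encoding partners, inhibitors or successors of Atf4, had log2 fold changes of 0.05, -0.09, 0.13 and 0.54 and were not called. Cebpg was 0.21 with total counts only. Ddit3, which encodes the proapoptotic factor CHOP, was at 6.93, 34.4 and 6.196 CPM in Vec and 14.7, 20.4 and 16.7 CPM in oncogene livers, so that replicate 2 of CD Vec was the highest of the 6 libraries. Without CD Vec replicate 2, Ddit3 gave 1.39 (adjusted p = 0.0151).

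**Figure D3:**
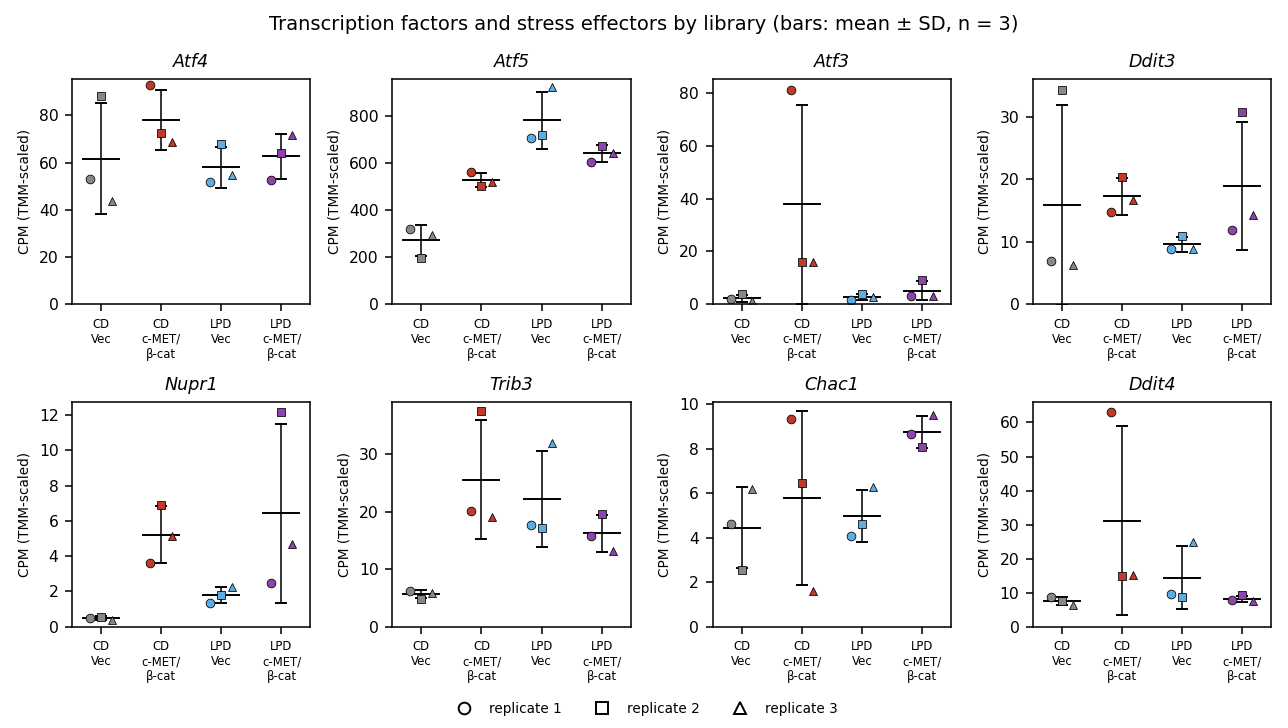
Points show TMM-scaled CPM of 8 transcription factors and stress effectors in each of the 12 libraries by group, with marker shape for the replicate, and black bars give mean ± SD (n = 3). Atf5 and Trib3 are lowest in CD Vec, Atf3 and Ddit4 owe their high CD c-MET/β-catenin means largely to replicate 1 (81.5 and 63.1 CPM), and Ddit3 in CD Vec is set by replicate 2 (34.4 CPM).

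Of the effectors, Trib3 (228775, chromosome 2 from 152337425 to 152344060), a pseudokinase that feeds back on Atf4, was at 6.22, 4.83 and 5.94 CPM in CD Vec and 20.2, 37.5 and 19.1 CPM in CD c-MET/β-catenin livers (log2 fold change 2.17, SE 0.31, adjusted p = 0.000355). Ddit4, an inhibitor of mTORC1 signaling, was at 8.81, 7.56 and 6.35 CPM in Vec and 63.1, 14.8 and 15.3 CPM in oncogene livers (log2 fold change 2.04, SE 0.57, adjusted p = 0.0162). The groups were separate, yet the size came mostly from oncogene replicate 1, without which the value was 0.99 (adjusted p = 0.0692). Sesn2, a leucine-binding inhibitor of mTORC1, was at 8.66, 6.08 and 5.05 CPM in Vec and 12.2, 12.2 and 11.5 CPM in oncogene livers (log2 fold change 0.86, SE 0.23, adjusted p = 0.0141). Its call was lost without CD Vec replicate 3 (0.70, adjusted p = 0.0531). Eif4ebp1, which represses cap-dependent translation, was at 34.6, 42.4 and 40.1 CPM in Vec and 88.3, 70.99 and 49.2 CPM in oncogene livers (log2 fold change 0.83, SE 0.18, adjusted p = 0.00370). Sqstm1, encoding the autophagy receptor p62, was at 378, 428 and 361 CPM in Vec and 564, 470.1 and 704 CPM in oncogene livers (log2 fold change 0.57, SE 0.17, adjusted p = 0.0232). Its groups did not overlap, but its call was lost without CD Vec replicate 1 (0.56, adjusted p = 0.0576), CD Vec replicate 3 (0.53, adjusted p = 0.0688) or CD oncogene replicate 3 (0.41, adjusted p = 0.0924), and in a fit of only the CD groups (0.56, adjusted p = 0.0825).

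Several textbook targets did not follow. Chac1, which degrades glutathione, was at 4.64, 2.56 and 6.196 CPM in CD Vec and 9.36, 6.45 and 1.61 CPM in CD c-MET/β-catenin livers (log2 fold change 0.38, SE 0.49, adjusted p = 0.577), and the lowest of the 6 was an oncogene library. Ppp1r15a, encoding the GADD34 subunit that recruits a phosphatase to eIF2α, had a log2 fold change of 0.53 (adjusted p = 0.303), and 0.95 without CD Vec replicate 2 (adjusted p = 0.0777). For Klhl24, a kelch-repeat gene, the value was -0.46 (adjusted p = 0.207), and -0.77 without CD Vec replicate 2 (adjusted p = 0.00894). For Vldlr, a lipoprotein receptor, it was 1.52 (adjusted p = 0.182), and 2.98 without CD Vec replicate 1 (adjusted p = 0.0274). The secreted protein Stc2 had between 1 and 11 counts in each of the 12 libraries and was not tested. Of the 7 genes whose motif windows are printed above, Asns, Pycr1, Atf3 and Nupr1 were called on CD and Jdp2, Chac1 and Vldlr were not.

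The runs of dataset numbers are entangled with this comparison, because run 1 has no Vec liver and run 3 no oncogene liver. With a term for the runs, 6 members were called on CD, where 6.78% of all genes were. They were Psat1 (3.76, adjusted p = 0.0246), Asns (2.81, adjusted p = 0.0307), Mthfd2 (2.54, adjusted p = 0.0164), Mthfd1l (2.02, adjusted p = 0.0429) and Aldh18a1 (2.06, adjusted p = 0.0396), all higher, and Chac1, which turned negative (-1.83, adjusted p = 0.0406). Phgdh was 3.86 in that fit (adjusted p = 0.0551) and Trib3 1.55 (adjusted p = 0.0702). The sign of the 18 called members could not turn within a run, since their oncogene and Vec libraries did not overlap. Run 2 has 1 CD library of each injection. A fit of only its 7 libraries, added after seeing the data, takes its spread from the LPD groups, and the lone CD libraries are assumed to vary like them. It called 5 members on CD, where 12.1% of its 14469 genes were called, with Mthfd2 (2.64, adjusted p = 0.0467), Mthfd1l (1.92, adjusted p = 0.0466) and Aldh18a1 (2.23, adjusted p = 0.0484) higher, and Chac1 (-1.96, adjusted p = 0.0126) and Klhl24 (-1.07, adjusted p = 0.0312) lower. Asns, Psat1 and Phgdh had 2.86, 3.71 and 4.12 in it (adjusted p of 0.0511, 0.0963 and 0.172). Within run 2 the median difference of log2(CPM + 0.5) over these 18 was 1.55, against 1.92 over all libraries on the same scale. For Phgdh it was 3.73 within run 2 and 4.73 over all libraries, for Asns 2.57 and 3.27, and for Eif4ebp1 0.29 and 0.79. Markers of other cells were counted in the same comparison, where 18.7% of all genes tested were called higher and 16.7% lower. Those called were 4 of 4 for dividing cells, 2 of 2 tested for neutrophils, 2 of 5 for cholangiocytes, 1 of 6 for Kupffer cells and macrophages and 1 of 5 tested for T and NK cells, all higher, 2 of 6 for hepatocytes and 1 of 6 for endothelial cells, all lower, and 3 higher and 2 lower of 6 for stellate cells and fibroblasts. Summed levels of the 4 neutrophil markers ran between 1.36 and 2.50 CPM in CD Vec livers and between 4.90 and 14.99 CPM in the CD oncogene livers. Of these markers 1 was at 0 throughout both groups. For the 5 cholangiocyte markers they were 36.8 to 46.3 and 121 to 382 CPM, and for the 6 of stellate cells and fibroblasts 183 to 235 and 134 to 476 CPM, with none at 0. The part of these cells in the members' values was not tested.

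The same oncogene effect was then examined on LPD. None of the 29 tested members was called by edgeR's quasi-likelihood test, where 1.32% of all genes tested were, and 2 had an unadjusted p under 0.05. DESeq2, which called 3.57% of all genes, called 1, Nupr1 (1.83, adjusted p = 0.0112), and edgeR called it without LPD oncogene replicate 1 (2.22, adjusted p = 0.0370). The median log2 fold change was 0.11 over the members and 0.01 over all genes tested. The libraries separated completely for 5 members upward and 2 downward, where 13.5% and 11.6% of all genes did. Markers of dividing cells were called higher on LPD too (3 of 4, and 4 by DESeq2), at the lower sums given above. No other markers were called by edgeR, and DESeq2 called 1 of 5 tested for T and NK cells. At an unadjusted p under 0.05 by edgeR were 5 of 6 for Kupffer cells and macrophages (median 0.71) and 3 of 5 for T and NK cells (median 1.17). So was 1 of 5 for cholangiocytes (median -0.20). The part of these cells was not tested.

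Serine synthesis genes overlapped between the injections on LPD. Phgdh was at 1.104, 6.46 and 7.49 CPM in LPD Vec and 4.300, 16.5 and 3.498 CPM in LPD c-MET/β-catenin livers (log2 fold change 0.70, SE 0.73, adjusted p = 0.844), with replicate 2 of the oncogene group above all others. Without LPD oncogene replicate 2 the sign turned (-0.37). Psat1 was at 15.7, 27.9 and 26.6 CPM in Vec and 18.1, 50.6 and 23.3 CPM in oncogene livers (log2 fold change 0.39, SE 0.50, adjusted p = 0.882, and -0.18 without LPD oncogene replicate 2). Psph was at 10.6, 10.8 and 13.2 CPM in Vec and 8.600, 13.5 and 12.03 CPM in oncogene livers (log2 fold change -0.02, SE 0.22, adjusted p = 0.990). Both vector and oncogene livers on LPD held levels above the 3 CD Vec libraries for Psat1 and Psph. Asns was at 9.45, 25.3 and 32.6 CPM in LPD Vec and 9.43, 21.2 and 15.3 CPM in LPD c-MET/β-catenin livers (log2 fold change -0.55, SE 0.50, adjusted p = 0.811). Aldh18a1 was at 4.03, 7.35 and 14.98 CPM in Vec and 6.401, 8.84 and 6.08 CPM in oncogene livers (log2 fold change -0.30, SE 0.42, adjusted p = 0.899, and 0.32 without LPD Vec replicate 3). Pycr1 was at 0.384, 1.18 and 1.69 CPM in Vec and 2.25, 1.33 and 1.66 CPM in oncogene livers (log2 fold change 0.68, SE 0.50, adjusted p = 0.725). In each of these genes the injections overlapped, and the highest Asns level of all 12 libraries was in an LPD Vec liver.

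In the one-carbon group on LPD, Mthfd2 was at 5.33, 9.46 and 15.6 CPM in Vec and 9.48, 15.4 and 7.78 CPM in oncogene livers (log2 fold change 0.11, SE 0.40, adjusted p = 0.966). Its direction turned without LPD Vec replicate 1 (-0.20) or LPD oncogene replicate 2 (-0.23). Mthfd1l was at 2.78, 2.37 and 2.62 CPM in Vec and 3.23, 6.0 and 3.24 CPM in oncogene livers (log2 fold change 0.69, SE 0.35, adjusted p = 0.511), narrowly separate. Aldh1l2 was at 1.92, 3.08 and 2.05 CPM in Vec and 3.32, 9.65 and 3.15 CPM in oncogene livers (log2 fold change 1.19, SE 0.49, adjusted p = 0.376), with all 3 oncogene libraries above Vec. Shmt2, at 232, 219 and 223 CPM in Vec and 186, 181 and 195 CPM in oncogene livers (log2 fold change -0.26, SE 0.13, adjusted p = 0.496), was again lower in every oncogene library without passing the test.

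No regulator passed the test between injections on LPD. Atf4 was at 51.6, 67.9 and 54.6 CPM in LPD Vec and 52.5, 64.1 and 71.5 CPM in LPD c-MET/β-catenin livers (log2 fold change 0.11, SE 0.23, adjusted p = 0.936). Eif2ak3 was at 24.1, 22.05 and 22.4 CPM in Vec and 19.8, 28.9 and 25.2 CPM in oncogene livers, and Eif2ak4 at 12.1, 11.1 and 10.98 CPM in Vec and 10.7, 12.03 and 11.02 CPM in oncogene livers. The log2 fold changes of the 2 kinases were 0.11 and -0.02, with adjusted p of 0.940 and 0.990. Atf5 was at 705, 717 and 922 CPM in Vec and 604, 673 and 644 CPM in oncogene livers (log2 fold change -0.29, SE 0.18, adjusted p = 0.649), the reverse order of CD. Atf3 was at 1.58, 3.67 and 2.67 CPM in Vec and 2.93, 9.09 and 3.15 CPM in oncogene livers (log2 fold change 0.94, SE 0.73, adjusted p = 0.748). Nupr1 was at 1.34, 1.82 and 2.26 CPM in Vec and 2.49, 12.2 and 4.68 CPM in oncogene livers (log2 fold change 1.84, SE 0.49, adjusted p = 0.105), every oncogene library being higher than every Vec library. Cebpg, a partner of Atf4 in binding DNA, was at 92.4, 98.2 and 121 CPM in Vec and 106, 130.0 and 126 CPM in oncogene livers (log2 fold change 0.22, SE 0.18, adjusted p = 0.779), after 78.9, 98.7 and 69.4 CPM in CD Vec and 59.4, 94.6 and 78.4 CPM in CD c-MET/β-catenin livers.

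The effectors were likewise uncalled on LPD. Trib3 was at 17.7, 17.2 and 31.95 CPM in LPD Vec and 15.8, 19.7 and 13.3 CPM in LPD c-MET/β-catenin livers (log2 fold change -0.45, SE 0.30, adjusted p = 0.667). Ddit4 was at 9.64, 8.74 and 24.98 CPM in Vec and 7.77, 9.298 and 7.57 CPM in oncogene livers (log2 fold change -0.81, SE 0.55, adjusted p = 0.690), where LPD Vec replicate 3 alone exceeded 10 CPM. Sesn2 was at 7.72, 10.1 and 12.6 CPM in Vec and 15.1, 14.5 and 10.4 CPM in oncogene livers (log2 fold change 0.40, SE 0.23, adjusted p = 0.592). For these stress genes the LPD Vec and oncogene livers overlapped. Eif4ebp1 was at 48.2, 47.4 and 46.5 CPM in Vec and 43.4, 53.2 and 50.99 CPM in oncogene livers (log2 fold change 0.05, SE 0.18, adjusted p = 0.960). Sqstm1 was at 419.8, 459 and 437 CPM in Vec and 368, 534 and 447 CPM in oncogene livers (log2 fold change 0.04, SE 0.17, adjusted p = 0.975).

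**Figure D4:**
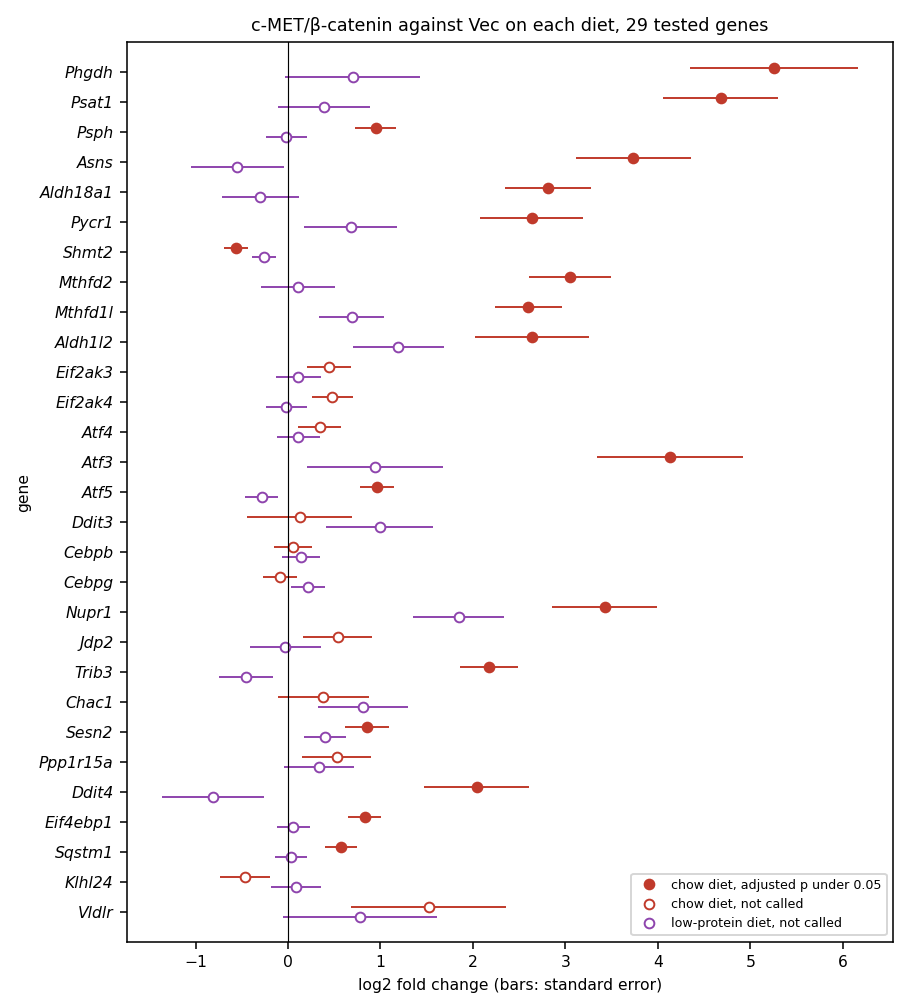
Points give the oncogene effect (log2 fold change, Vec as baseline) for the 29 tested genes on CD (red) and LPD (purple), with bars for the standard error, filled where the adjusted p was under 0.05. On CD 18 points are filled and synthesis genes reach 5.26, while on LPD 0 are filled and no point exceeds 1.84.

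Diet was compared next within each injection, on the same libraries as above, so these values are not independent of the oncogene effects. In Vec livers, LPD raised the synthesis genes Asns and Psat1, the factor Atf5 and the feedback gene Trib3. Asns reached 22.5 ± 11.8 CPM in LPD Vec against 0.990 ± 0.717 CPM in CD Vec livers (SD, n = 3 each), and Psat1 23.4 ± 6.68 against 1.53 ± 1.18 CPM. These 4 of 29 members were called higher and 0 lower, where 0.308% of all genes tested were called, 0.186% higher and 0.122% lower. The median was 0.33 over the members and -0.03 over all genes tested, and 13 members had an unadjusted p under 0.05. DESeq2 called 8, all higher, and 2.43% of all genes. The 3 LPD libraries were all above the 3 CD libraries for 10 members and below for 1, where 8.13% and 9.02% of all genes were. For Asns the log2 fold change was 4.48 (adjusted p = 0.0227), which is 22.3-fold. Psat1 gave 3.91 (adjusted p = 0.0262) and Trib3 1.97 (adjusted p = 0.0262). Atf5 gave 1.53 (adjusted p = 0.00987), and it was the 1 of the 4 that was called in all 12 fits without a library. In a fit of only the Vec groups none of the 4 passed (Atf5 1.54, adjusted p = 0.0684), and with a replicate block Psat1 (3.83, adjusted p = 0.0644) and Trib3 (1.96, adjusted p = 0.0610) did not. Psat1 was also lost with no filter on low counts (3.92, adjusted p = 0.0580).

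The other 3 calls were each lost when any 1 of several libraries was left out. Without CD Vec replicate 2 the values were 4.05 for Asns (adjusted p = 0.0670), 3.39 for Psat1 (adjusted p = 0.0604) and 1.87 for Trib3 (adjusted p = 0.107). Without LPD Vec replicate 2 they were 4.39, 3.76 and 2.13 (adjusted p of 0.0881, 0.114 and 0.0881). Without LPD Vec replicate 3 they were 4.12, 3.81 and 1.62 (adjusted p of 0.0755, 0.110 and 0.110). Psat1 and Trib3 were also lost without CD Vec replicate 3 (4.27 and 2.02, adjusted p of 0.0625 and 0.0851). The sizes thus changed little and the calls did. Members that approached the threshold were Mthfd2 (log2 fold change 2.36, SE 0.44, adjusted p = 0.0530), Aldh18a1 (log2 fold change 2.39, SE 0.46, adjusted p = 0.0578) and Aldh1l2 (log2 fold change 2.88, SE 0.62, adjusted p = 0.0743), and DESeq2 called these 3 and Nupr1. With total counts only 5 members were called, where 66 genes were called over the whole table. Without 1 library 1 to 6 members were called, where 5 to 104 genes were over the whole table. Phgdh was 2.73 (adjusted p = 0.265), its LPD Vec replicate 1 lying within the CD range. Mthfd1l, in contrast, was 0.35 (adjusted p = 0.820) and Atf4 -0.09 (adjusted p = 0.944). The difference between Mthfd1l and its pathway neighbors was not tested. With the run term, which called 0.115% of all genes, 2 of the 4 calls remained, Atf5 (1.46, adjusted p = 0.0427) and Asns (3.98, adjusted p = 0.0427). The fit of run 2 alone, which called 0.94% of its genes, called 1 member, Atf5 (1.46, adjusted p = 0.0284). Within run 2, which has 1 CD and 2 LPD Vec libraries, the 4 had a median difference of 2.62 against 2.80 over all libraries. Their sign could not turn there, since their CD and LPD Vec libraries did not overlap.

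In c-MET/β-catenin livers, LPD lowered Atf3, Ddit4 and Mthfd1l and raised Cebpg relative to CD. Psat1, Asns and Trib3 had log2 fold changes of -0.38, 0.20 and -0.66, which did not pass. One member was called higher and 3 lower of 29, where 20% of all genes tested were called, 8.66% higher and 11.3% lower. DESeq2 called 7, where it called 24% of all genes, and neither share is read as a result about the members. The median was -0.38 over the members and -0.01 over all genes. Libraries separated for 4 members upward and 6 downward, where 19.2% and 20.1% of all genes did. For Mthfd1l the log2 fold change was -1.56 (adjusted p = 0.00831), and its call held in all 12 fits without a library. Atf3 gave -2.89 (adjusted p = 0.0168) and -1.65 without CD oncogene replicate 1 (adjusted p = 0.0647). Its call was also lost without LPD oncogene replicate 1 (-2.61, adjusted p = 0.0628) or 3 (-2.63, adjusted p = 0.0668). Ddit4 gave -1.92 (adjusted p = 0.0328) and -0.87 without CD oncogene replicate 1 (adjusted p = 0.144), and it was lost without any 1 of the 3 LPD c-MET/β-catenin libraries (adjusted p of 0.0920, 0.0726 and 0.0980). It was lost as well with the replicate block (-1.73, adjusted p = 0.0703), with no filter on low counts (adjusted p = 0.0758) and in a fit of only the oncogene groups (adjusted p = 0.0613). Cebpg gave 0.64 (adjusted p = 0.02996), and it was lost without CD oncogene replicate 1 (0.48, adjusted p = 0.0888) or 3 (0.65, adjusted p = 0.0585) and without LPD oncogene replicate 2 (0.59, adjusted p = 0.0906) or 3 (0.62, adjusted p = 0.0871). It was also lost with total counts only (0.56, adjusted p = 0.0564) and in a fit of only the oncogene groups (0.65, adjusted p = 0.0520).

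Other members of this comparison missed the threshold. Phgdh, at 29.1 ± 5.65 CPM on CD and 8.08 ± 7.26 CPM on LPD (SD, n = 3 each), was -1.84 (adjusted p = 0.0989), and -2.89 without LPD oncogene replicate 2 (adjusted p = 0.0302). Its 3 LPD libraries were all below its 3 CD libraries. Aldh1l2 was 1.44 (adjusted p = 0.0598), Eif2ak3 -0.68 (adjusted p = 0.0683), Eif4ebp1 -0.50 (adjusted p = 0.0683) and Klhl24 0.72 (adjusted p = 0.0853). DESeq2 called Aldh1l2, Eif2ak3 and Eif4ebp1 (adjusted p of 0.0262, 0.0396 and 0.0474), Eif2ak3 and Eif4ebp1 passed with total counts only (adjusted p of 0.0370 and 0.0384), and Klhl24 passed with only the oncogene groups (adjusted p = 0.0318). Without CD Vec replicate 2, which enters only through the shared spread, Eif2ak3 (adjusted p = 0.0156), Aldh1l2 (adjusted p = 0.0466) and Klhl24 (adjusted p = 0.0106) passed. Eif4ebp1 passed without CD oncogene replicate 3 (-0.69, adjusted p = 0.00715). With the run term, which called 4.43% of all genes, 1 member was called, Chac1, higher on LPD (2.44, adjusted p = 0.0170), and Mthfd1l was -0.97 (adjusted p = 0.264). Within run 2, with 1 CD and 3 LPD oncogene libraries, the 4 called members had a median of -0.91 against -1.50 over all libraries. Their sign could not turn there, since their CD and LPD oncogene libraries did not overlap. The fit of run 2 alone, which called 11.9% of its genes, called 2 members higher on LPD, Chac1 (2.44, adjusted p = 0.00380) and Klhl24 (0.86, adjusted p = 0.0373). Markers called lower on LPD were 4 of 4 of dividing cells, 2 of 2 tested of neutrophils (summed 1.40 to 2.27 CPM in LPD c-MET/β-catenin livers, none at 0 in all 3), 2 of 5 of cholangiocytes (40.8 to 52.7 CPM), 3 of 6 of stellate cells and fibroblasts (148 to 237 CPM, with 2 called higher), 1 of 6 of hepatocytes (1 called higher) and 1 of 6 of Kupffer cells and macrophages. Those called higher were 1 of 6 of endothelial cells and 1 of 4 of B cells. Over all genes tested 11.3% were called lower on LPD and 8.66% higher. The part of the marker cells was not tested.

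**Figure D5:**
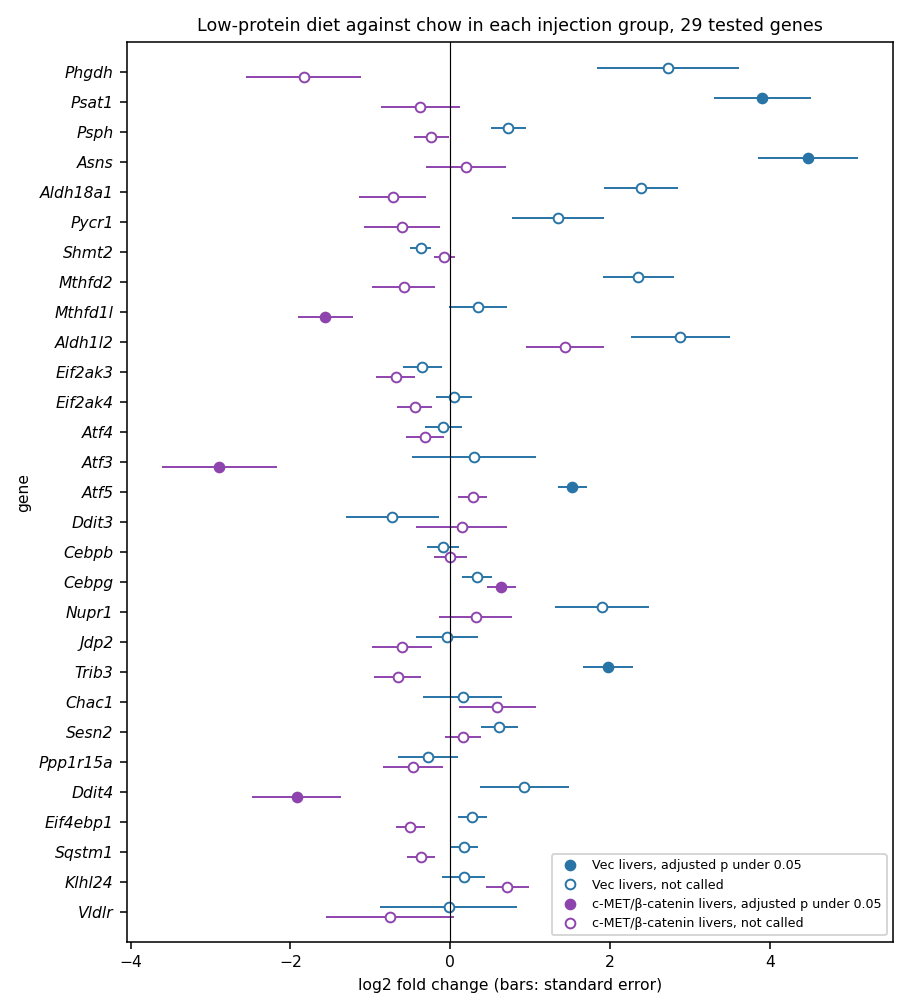
Points give the log2 fold change of LPD against CD for the 29 tested genes in Vec livers (blue) and c-MET/β-catenin livers (purple), with bars for the standard error, filled where the adjusted p was under 0.05. The filled blue points (Asns, Psat1, Trib3 and Atf5) lie to the right, and of the filled purple points Atf3, Ddit4 and Mthfd1l lie to the left and Cebpg to the right.

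An interaction test asked if c-MET/β-catenin acted differently on the 2 diets. It took the effect on LPD less the effect on CD, in log2 units. The result fell below 0 for 9 of 29 members and above 0 for none at the threshold, where 8.91% of all genes tested were called, 4.42% below 0 and 4.49% above. The median was -0.78 over the members and 0.02 over all genes, and 14 members had an unadjusted p under 0.05. DESeq2 called 12, all below 0, and 15% of all genes. In synthesis genes the oncogene effect on CD was 5.26 and on LPD 0.70 for Phgdh (interaction -4.56, SE 1.15, adjusted p = 0.0341). For Psat1 the effects were 4.68 and 0.39 (interaction -4.29, SE 0.78, adjusted p = 0.0107), and for Asns 3.73 and -0.55 (interaction -4.28, SE 0.80, adjusted p = 0.0117). The interaction was -3.11 for Aldh18a1 (adjusted p = 0.0139), -2.94 for Mthfd2 (adjusted p = 0.0147) and -1.91 for Mthfd1l (adjusted p = 0.0362). Among regulators and effectors it was -2.63 for Trib3 (adjusted p = 0.00621), -1.25 for Atf5 (adjusted p = 0.0152) and -2.85 for Ddit4 (adjusted p = 0.0473). For Atf4 it was -0.23 (adjusted p = 0.702).

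The 9 genes differed in where the groups lay. For Psat1, Asns, Aldh18a1, Mthfd2, Trib3 and Atf5, the CD Vec libraries were below all libraries of the other 3 groups. For Mthfd1l and Ddit4, the CD oncogene libraries were above all CD Vec and all LPD oncogene libraries, with Ddit4 at 8.21 ± 0.947 CPM in LPD c-MET/β-catenin and 7.58 ± 1.23 CPM in CD Vec livers (SD, n = 3 each). By group means, Phgdh was lowest in CD Vec and highest in CD c-MET/β-catenin livers. Both LPD groups had means between them (5.02 ± 3.43 CPM in Vec and 8.08 ± 7.26 CPM in oncogene livers). Of single libraries, LPD Vec replicate 1 lay within the CD Vec range. The interactions of Psat1, Asns, Aldh18a1, Mthfd2, Trib3 and Atf5 were called in all 12 fits without a library. Those of Phgdh, Mthfd1l and Ddit4 were lost in 8, 9 and 10 of the 12, with adjusted p up to 0.0841, 0.0883 and 0.111, and Ddit4 was -1.80 without CD oncogene replicate 1. With the replicate block 7 of the 9 were called, Mthfd1l (-1.89, adjusted p = 0.0582) and Ddit4 (-2.67, adjusted p = 0.0833) being lost. With no filter on low counts 7 were called as well, without Phgdh (-4.56, adjusted p = 0.0830) and Ddit4 (-2.85, adjusted p = 0.101). With the run term 0 of 9 were called (by edgeR's quasi-likelihood test, adjusted p from 0.0568 for Asns to 0.453 for Ddit4). The fit of run 2 alone, which called 2.7% of its genes, called none of the 9 and 1 other member, Chac1, above 0 (2.64, adjusted p = 0.0204). Within run 2 all 9 kept their sign, with a median of -2.59 against -2.68 over all libraries. Psph (-0.97, adjusted p = 0.0741), Eif4ebp1 (-0.78, adjusted p = 0.0755) and Atf3 (-3.19, adjusted p = 0.0812) did not pass, and DESeq2 called all 3. Of the cell markers, 2 of 2 tested for neutrophils, 2 of 5 for cholangiocytes, 1 of 4 for dividing cells and 1 of 6 for stellate cells and fibroblasts were called below 0, and 1 of 6 each for stellate cells and fibroblasts, hepatocytes and endothelial cells above 0. Over all genes tested 4.42% were called below 0 and 4.49% above. The part of the marker cells in the 9 members' values was not tested.

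Levels between genes were compared per length of exon (RPKM). In CD Vec livers the highest members were Atf5 at 136 ± 32.5, Sqstm1 at 116 ± 10.4, Shmt2 at 93.3 ± 5.504 and Cebpb at 84.6 ± 16.97 RPKM (SD, n = 3 each), whereas Atf4 was at 26.1 ± 9.98 RPKM. The serine genes were far below, with Psph at 1.61 ± 0.163, Psat1 at 0.360 ± 0.277 and Phgdh at 0.299 ± 0.271 RPKM. In CD c-MET/β-catenin livers Phgdh (11.7 ± 2.27) and Psat1 (9.39 ± 2.17) passed Psph (3.097 ± 0.840) on this scale, and Shmt2, which consumes their product, was still at 63.3 ± 10.5 RPKM. In LPD Vec livers the order was Psat1 (5.503 ± 1.57), Psph (2.66 ± 0.341) and Phgdh (2.02 ± 1.38), of which Psph and Phgdh differed by less than the SD of Phgdh. Atf5 was the most abundant member per length in all 4 groups, at 264 RPKM in CD c-MET/β-catenin, 392 in LPD Vec and 321 in LPD c-MET/β-catenin livers.

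Genes around the members were counted in 4 further lists, beside backgrounds over all genes tested of 35.4% called on CD (18.7% higher, 16.7% lower), 1.32% on LPD, 0.308% by diet in Vec livers and 20% by diet in oncogene livers (8.66% higher, 11.3% lower). Of 21 genes of serine use and one-carbon metabolism, 4 rose and 11 fell on CD in oncogene livers (median -0.63). The largest were Gldc, of the glycine cleavage system, from 151 ± 60.6 to 22.04 ± 12.1 CPM (log2 fold change -2.77, SE 0.46, adjusted p = 0.000979), Sfxn1, the mitochondrial serine carrier, from 113 ± 16.1 to 18.9 ± 3.93 CPM (log2 fold change -2.57, SE 0.18, adjusted p = 7.59e-06), and Sds, serine dehydratase, from 247 ± 51.1 to 51.6 ± 42.9 CPM (log2 fold change -2.25, SE 0.61, adjusted p = 0.0141). On LPD 0 of the 21 were called by edgeR's quasi-likelihood test (5 with an unadjusted p under 0.05, 0 by DESeq2), and by diet in Vec livers 0 were called (6 unadjusted, 1 by DESeq2). In c-MET/β-catenin livers 6 were higher on LPD and 2 lower, led by Gldc (2.40) and Sfxn1 (2.04), with Sptlc2, which joins serine to fatty acid in sphingolipid synthesis, at -1.05.

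Of 30 tested among 31 other known targets of Atf4, 13 rose and 4 fell on CD (median 0.31). Among the 3 with the largest change, the neutral amino acid carrier Slc1a4 rose from 4.805 ± 3.12 to 84.3 ± 31.2 CPM (log2 fold change 4.12, SE 0.49, adjusted p = 0.000131). Slc7a11, the cystine carrier, had at most 2 counts in each CD Vec library and 36, 59 and 51 in the oncogene libraries, at least 11.2-fold higher against a floor of 3 counts per library. Adm2, which encodes a secreted peptide, had 0, 0 and 1 counts in CD Vec and 206, 25 and 30 in oncogene livers, at least 16.9-fold higher, and at least 6.70-fold higher without CD oncogene replicate 1. On LPD the 1 called by edgeR was Slc1a5, a glutamine carrier (log2 fold change 2.21, SE 0.29, adjusted p = 0.00347). There 6 of the 30 had an unadjusted p under 0.05, and DESeq2 called 3, all higher. Slc7a11, not called by edgeR on LPD, had 2 counts in each LPD Vec library and 9, 26 and 12 in the LPD oncogene libraries. This is at least 4.42-fold higher against the same floor. By diet in Vec livers the 1 called by edgeR was Cars, a cysteinyl-tRNA synthetase (log2 fold change 0.78, SE 0.14, adjusted p = 0.0442). There 11 of the 30 had an unadjusted p under 0.05, and 6 were called by DESeq2, all higher. In oncogene livers 4 were higher and 6 lower on LPD, led by Ndrg1 (-2.27, and -1.35 without CD oncogene replicate 1) and Slc1a4 (-2.14). The Cars call was lost in 6 of the 12 fits without a library (adjusted p up to 0.234), with the replicate block (adjusted p = 0.0757), with the run term (adjusted p = 0.136) and with only the Vec groups (adjusted p = 0.0739).

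Of 15 genes of eIF2 phosphorylation and its exchange factor, 2 rose and 2 fell on CD (median -0.18), and DESeq2 called 5. They included Eif2ak2, the kinase PKR (log2 fold change 0.75, SE 0.18, adjusted p = 0.00691, and adjusted p = 0.05001 in a fit of only the CD groups), and Ppp1r15b, the constitutive eIF2α phosphatase subunit (log2 fold change -0.74, SE 0.16, adjusted p = 0.00391). Eif2b2, of the exchange factor, had 0.37 (adjusted p = 0.0391), a call lost in 10 of the 12 fits without a library, with the replicate block (adjusted p = 0.0595), with no filter on low counts (adjusted p = 0.0634) and with only the CD groups (adjusted p = 0.172). None of the 15 was called by edgeR on LPD or by diet in Vec livers (1 with an unadjusted p under 0.05 in each, 0 by DESeq2), and 1, the heme-sensing kinase gene Eif2ak1, was higher on LPD in oncogene livers (log2 fold change 0.39, SE 0.10, adjusted p = 0.0152), a call lost without LPD oncogene replicate 2 (adjusted p = 0.0550). Of 13 neighbors in proline, asparagine and branched-chain metabolism, 1 rose and 6 fell on CD (median -0.67). Aspg, an asparaginase, fell from 261 ± 88.9 to 21.1 ± 7.63 CPM (log2 fold change -3.63, SE 0.29, adjusted p = 1.69e-05), and Oat, which links ornithine to proline, rose from 602 ± 191 to 1945 ± 769.9 CPM (log2 fold change 1.69, SE 0.31, adjusted p = 0.00148). On LPD the 1 called gene of this list was Oat (log2 fold change 1.43, SE 0.31, adjusted p = 0.0456), a call lost in 8 of the 12 fits without a library (adjusted p up to 0.207). By diet in Vec livers edgeR called 0 of the 13 (8 with an unadjusted p under 0.05, 3 by DESeq2). In oncogene livers 2 were higher and 2 lower on LPD. LPD c-MET/β-catenin livers held Aspg at 236 ± 30.8 CPM, higher than in CD livers (log2 fold change 3.48, SE 0.29, adjusted p = 0.000107).

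The run term also took calls from the genes of these lists that are named above. On CD they were Gldc (-2.32, adjusted p = 0.106), Sds (-2.15, adjusted p = 0.288), Ppp1r15b (-0.66, adjusted p = 0.153), Eif2b2 (0.32, adjusted p = 0.444) and Adm2 (adjusted p = 0.128). Sfxn1, Slc1a4, Slc7a11, Eif2ak2, Aspg and Oat kept theirs on CD. Oat on LPD was lost too (1.38, adjusted p = 0.0857). By diet in oncogene livers Gldc (1.91, adjusted p = 0.177), Ndrg1 (-1.84, adjusted p = 0.173), Slc1a4 (-1.99, adjusted p = 0.0816) and Eif2ak1 (0.28, adjusted p = 0.329) were lost, each with its sign unchanged.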

How the data were processed

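Gene counts from the livers of 12 mice (4 groups of 3) were used as deposited. The authors aligned the reads to mm10 with HISAT2 and made the counts per Entrez gene with featureCounts. Handling of strand and of reads shared between genes is not given in the sources used here, and the labels and the methods name different library kits (rRNA depletion and mRNA). All count columns matched a sample by name. Of 27179 genes, 25275 took a symbol from RefSeq and 18 from GENCODE by Entrez identifier.

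Genes were filtered with filterByExpr, scaled by TMM and tested with edgeR 4.0.16 (quasi-likelihood, robust) in R 4.3.3, in 1 fit of the 4 groups with Benjamini-Hochberg adjustment over 13947 genes, called at an adjusted p under 0.05. The code was tested on simulated data. Mean values are ± SD over 3 libraries, a log2 fold change has its standard error (SE), and the biological coefficient of variation was 23.2%. In the smallest library 1 CPM is 19.48 counts before the TMM factors, which ran from 0.864 to 1.12. Members under about 1 CPM thus rest on few counts. RPKM is TMM-scaled CPM per kilobase of merged exons. A count of 0 allows up to 3 counts per library, for counting error only. Alternatives were total counts only, DESeq2 1.42.0, no filter on low counts, at least 5 CPM in 3 libraries, each library left out, a replicate block, a term for the dataset-number runs, and only the 2 groups compared. A fit of only the 7 libraries of run 2, and the fold of Adm2 without its highest library, were added after seeing the data. Values within run 2 are differences of log2(CPM + 0.5). Replicates are mice, and p-values weigh group differences against the spread between mice, estimated jointly over the 4 groups and over genes. The main fit has no term for the runs.

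The members and lists were chosen with earlier results of these data known. Values in every library are given for members called in at least 1 comparison and for Atf4, Eif2ak3 and Eif2ak4, and from each other list at most the 3 called genes with the largest change per comparison are named. Bcat1, Stc2, Ddit3, Chac1 and other members outside this rule, Slc7a11 on LPD, and Sptlc2 in the interaction, were named after their values were seen. Python 3.11.15, pandas 2.3.3 and matplotlib 3.10.9 were used for summaries and plots.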

Additional observations from a re-analysis of the deposited data

Results flagged for a closer look

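For 9 members the oncogene effect differed between the diets by the interaction test (edgeR, oncogene effect on LPD minus that on CD, log2). The values were -4.56 for Phgdh, -4.29 for Psat1, -4.28 for Asns, -3.11 for Aldh18a1, -2.94 for Mthfd2, -1.91 for Mthfd1l, -1.25 for Atf5, -2.63 for Trib3 and -2.85 for Ddit4. All 9 are negative, and none was called with the run term or with only the libraries of run 2.

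The same test singled out genes of the surrounding lists. Of the 21 genes of serine use and one-carbon metabolism, 3 were called above 0 and 1 below, where 4.49% and 4.42% of all genes tested were. Of 30 other Atf4 targets 0 were called above and 8 below, and of 13 neighbors in proline, asparagine and branched-chain metabolism 3 above and 0 below. Of 15 eIF2 genes edgeR called 0 (4 with an unadjusted p under 0.05, 1 by DESeq2). Values above 0 were 2.42 for the serine carrier Sfxn1 (adjusted p = 0.000638), 2.29 for Gldc (adjusted p = 0.0435), 1.59 for Ftcd, which feeds one-carbon units from histidine (adjusted p = 0.00385), and 3.27 for the asparaginase Aspg (adjusted p = 0.00210). Prodh2, of hydroxyproline breakdown, had 0.93 (adjusted p = 0.0404) and Bckdha, of branched-chain keto acid breakdown, 0.63 (adjusted p = 0.0441). The calls on Gldc, Prodh2 and Bckdha were lost in 8, 8 and 11 of the 12 fits without a library. Below 0, Sptlc2 of sphingolipid synthesis had -1.11 (adjusted p = 0.0147), and values were -3.74 for the cationic carrier Slc7a1 (adjusted p = 0.0177) and -3.05 for Slc1a4 (adjusted p = 0.0176). The value for Adm2 was -6.98 (adjusted p = 0.0276), but its CD Vec libraries hold 0, 0 and 1 counts, so this size depends on the prior count, and the call was lost in 7 of the 12 fits. With the run term Sfxn1 and Aspg were still called (adjusted p of 0.0285 and 0.0312), whereas Ftcd, Gldc, Prodh2, Bckdha, Slc7a1, Slc1a4 and Adm2 were not (adjusted p from 0.0546 to 0.347). Groups of 3 libraries were not tested for single libraries that stand apart.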

How the results depend on the processing

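The 35 calls on members in the 5 comparisons kept their direction under every alternative run. They stayed past the threshold in 33 of 35 with total counts only, 35 of 35 with DESeq2, 31 of 35 with no filter, 33 of 33 that could be tested with at least 5 CPM in 3 libraries, 366 of 420 fits without 1 library, 18 of 26 with only the groups compared, 7 of 35 with the run term, and 4 of 35 with only the 7 libraries of run 2 (a fit added after seeing the data). The cause was not tested.

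Members called on CD numbered 6 with the run term. With only run 2 they numbered 5 on CD, 1 by diet in Vec livers, 2 by diet in oncogene livers and 1 in the interaction, and calls over all genes came to 1745, 136, 1720 and 390. On LPD they numbered 1 by DESeq2, 1 with only the groups compared and 0 to 1 without 1 library. By diet in Vec livers they numbered 8 by DESeq2, 2 with the replicate block, 2 with the run term, 0 with only the groups compared and 1 to 6 without 1 library. By diet in oncogene livers they numbered 7 by DESeq2, 1 with the run term and 1 to 7 without 1 library, and for the interaction 7 with the replicate block, 7 with no filter, 0 with the run term and 6 to 11 without 1 library. Over the whole table, calls on CD went from 4933 to 945 with the run term and 3014 with only the groups compared. Those on LPD went from 184 to 497 (DESeq2), 75 (run term), 505 (2 groups) and 52 to 254 (without 1 library). By diet in Vec livers they went from 43 to 66 (total counts), 339 (DESeq2), 16 (replicate block), 16 (run term), 3 (2 groups) and 5 to 104 (without 1 library). In oncogene livers they went from 2784 to 618 (run term) and 1585 to 3660 (without 1 library), and the interaction from 1243 to 2083 (DESeq2), 812 (replicate block), 85 (run term) and 391 to 1404 (without 1 library).

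Total counts only moved the median of all genes to 0.28 on CD, 0.12 on LPD and -0.16 in the interaction. The share of calls that were higher was 52.8% on CD (78.8% with total counts, 67.9% with the run term), 43.4% by diet in oncogene livers (34.3% and 28.6%) and 50.4% in the interaction (29.03% and 37.6%). Among 18 pairs of libraries with the same replicate number, 2 correlated over 0.1 (range -0.18 to 0.17) and 3 of 12 libraries correlated best with their own number, so the numbers were not taken to pair mice. The replicate block kept 30 of 35 calls on members.

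Uncalled members changed sign in places. On CD, Eif2ak4 was -0.062 and Jdp2 -0.20 with only run 2, Cebpb -0.28 with the run term, -0.48 with only run 2 and -0.10 to 0.22 without 1 library, Cebpg 0.21 with total counts, 0.16 with only run 2 and -0.26 to 0.070, Chac1 -1.83 with the run term, -1.96 with only run 2 and -0.16 to 0.82, Ddit3 -0.25 to 1.39 and Ppp1r15a -0.087 to 0.95. On LPD, Phgdh ranged from -0.37 to 1.09, Psat1 from -0.18 to 0.66, Aldh18a1 from -0.65 to 0.32 and Mthfd2 from -0.23 to 0.56 (-0.16 with the run term, -0.20 with only run 2). By diet in oncogene livers, Psat1 was 0.048 and Eif4ebp1 5.9e-05 with the run term, and 0.052 and 9.9e-05 with only run 2.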

Other observations

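Within groups, 1 library often held the extreme value of many members at once. Among the 29 tested members, LPD oncogene replicate 2 was the highest of its 3 libraries for 21 and replicate 1 the lowest for 18. CD oncogene replicate 1 was highest for 16 and replicate 3 lowest for 16. In LPD Vec, replicate 1 was lowest for 17 and replicate 3 highest for 13. CD Vec replicate 2 was both the highest for 12 (Atf4, Ddit3 and Eif2ak3 among them) and the lowest for 14 (Phgdh, Psat1 and Asns among them).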
